A study of Mus musculus with 4 samples.

Results

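The p53 pathway was described through 10 genes that were listed by symbol without regard to their level: Trp53, which encodes p53, its regulator Mdm2, and the responsive genes Cdkn1a, Ccng1, Btg2, Gadd45a, Bax, Phlda3, Gdf15 and Sesn2. All 10 were found among the 24138 rows of the deposited table, 1 row each. Bulk RNA sequencing covered 4 livers, each from a male C57BL/6J mouse of 18 weeks, and per the labels every mouse had received the FAT-MASH diet, which produces metabolic dysfunction-associated steatohepatitis (MASH), and the lipid mediator resolvin D1 (RvD1). They form 1 group, named livers 1 to 4 after the labels, and dose, route and duration of either treatment are not given in the sources used here. No liver without RvD1 or without the diet was analysed here, so the values show how much of each gene was present and how far the 4 livers differed, and they hold no effect of diet or RvD1.

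p53 is a transcription factor that is kept scarce by MDM2, a ubiquitin ligase that marks it for breakdown, and that accumulates after DNA damage or other stress. Its targets halt the cell cycle, repair DNA, or favour cell death, and Mdm2 is itself a target, which closes a feedback loop. Lasting activity of p53 and of the cell cycle inhibitor p21, the product of Cdkn1a, is a hallmark of senescence, a stable arrest that hepatocytes can enter in fatty liver disease. p53 is controlled largely at the level of the protein, which was not measured here.

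The promoters of 2 genes, Cdkn1a and Ccng1, are shown first because each holds a close match to the DNA element that p53 binds. The element is a pair of copies of the p53 decamer, and it was searched with no base between the copies; the consensus reads the same on both strands. RefSeq promoter windows in GRCm38.p6, from 250 bases before to 50 bases after a start site, were found for 10 of the 10 genes, 12 windows in all. The best match in the windows of Cdkn1a and of Ccng1 covered 19 of 20 positions, and a match that good was present in 29 of 32851 RefSeq windows (0.0883%). The Cdkn1a window lies at chr17:29090729-29091028 on the plus strand, the Ccng1 window at chr11:40755237-40755536 on the minus strand, and each is printed 5′ to 3′ with the matched element in capitals.
Cdkn1a: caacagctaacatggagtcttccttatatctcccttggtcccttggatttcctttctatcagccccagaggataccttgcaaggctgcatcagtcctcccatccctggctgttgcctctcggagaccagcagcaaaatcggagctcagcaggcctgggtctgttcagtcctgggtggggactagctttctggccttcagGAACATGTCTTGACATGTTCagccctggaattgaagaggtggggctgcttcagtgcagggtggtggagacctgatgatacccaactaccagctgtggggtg
Ccng1: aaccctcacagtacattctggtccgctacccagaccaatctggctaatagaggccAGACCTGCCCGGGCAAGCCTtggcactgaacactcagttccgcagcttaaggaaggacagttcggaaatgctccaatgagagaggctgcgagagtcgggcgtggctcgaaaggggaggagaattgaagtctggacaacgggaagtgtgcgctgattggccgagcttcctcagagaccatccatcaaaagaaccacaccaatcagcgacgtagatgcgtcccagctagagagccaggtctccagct
The first base of the element lies at position -51 from the start site in Cdkn1a and at position -195 in Ccng1. The Cdkn1a window belongs to the upstream of its 2 annotated start sites, 7 bases from the start of the span in the deposited table, and the window of the downstream start site had a best match of 15 of 20 positions.

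A single p53 decamer, matched in full, was present in 6 of the 12 windows, against 8.36% of all 32851 windows. The 10 genes were listed for their place in the p53 pathway, so a raised share is no independent result. Those 6 windows belonged to 6 of the 10 genes. Besides Cdkn1a and Ccng1 these were Trp53 itself, Mdm2, Gadd45a and Bax, whose decamers are shown in capitals with 10 bases on each side.
Trp53: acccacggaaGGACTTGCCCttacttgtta
Mdm2: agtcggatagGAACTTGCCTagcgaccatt
Gadd45a: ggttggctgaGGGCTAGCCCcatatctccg
Bax: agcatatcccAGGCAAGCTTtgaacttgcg
Their first bases lie at positions -75, -186, -40 and -201 from the start sites, in that order. In the Trp53, Gadd45a and Bax windows the best pair of decamers matched 17 of 20 positions, as in 6.29% of all windows, and in the Mdm2 window 15 of 20, as in 76.6%. The windows of Btg2, Phlda3, Gdf15 and Sesn2 held no full decamer, and bases outside the windows were not searched. The Btg2 window (chr1:134079106-134079405, minus strand) held the cyclic AMP response element TGACGTCA, in capitals below, which was present in 1.79% of all windows and in no window of the other 9 genes.
Btg2: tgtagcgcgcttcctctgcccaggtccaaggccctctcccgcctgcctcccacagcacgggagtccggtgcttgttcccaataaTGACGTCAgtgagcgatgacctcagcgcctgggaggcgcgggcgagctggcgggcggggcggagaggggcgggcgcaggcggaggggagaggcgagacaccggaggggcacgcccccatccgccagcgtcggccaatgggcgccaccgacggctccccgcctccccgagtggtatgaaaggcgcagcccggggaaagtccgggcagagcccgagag
The stress element TGATGNAA and the AP-1 element TGANTCA, searched on both strands, were absent from all 12 windows and present in 3.97% and 7.81% of all windows. Matches are a description of these letters and were not tested as binding sites. The start sites of the Gdf15 windows lie 460 and 821 bases outside the deposited span. The Gadd45a start site lies 43245 bases inside the edge of its deposited span, so the table places neither promoter.

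All 10 genes were expressed in every liver. Values are FPKM, that is fragments divided by transcript length and by the library's mapped fragments, and a gene is called expressed here at a mean of at least 1 FPKM, which 10541 rows reached. The lowest single value among the 10 genes was 2.29 FPKM, for Sesn2 in liver 4. Depth was put at 18.8 to 20.1 M fragments per liver. At that depth 1 fragment on a transcript of 1 kb is worth 0.0498 to 0.0531 FPKM. The estimate used values in a fixed window only, which bounds what it can return. It is therefore rough and does not compare the livers. Bax had the highest mean and Sesn2 the lowest. In the order of means, Bax stood above Trp53, Mdm2 above Cdkn1a, and Phlda3 above Sesn2 by more than the larger of the SDs of the pair. The steps from Trp53 to Ccng1, Gdf15, Gadd45a, Btg2 and Mdm2, and from Cdkn1a to Phlda3, were each smaller than the spread between livers.

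**Figure D1:**
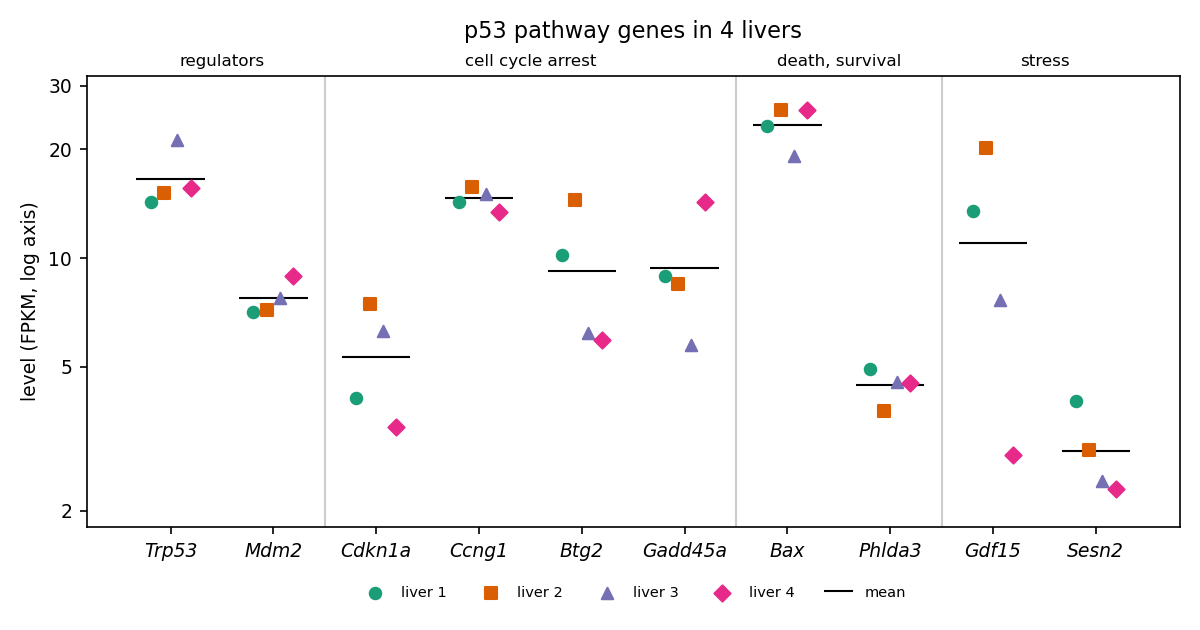
Level of each gene in FPKM (log axis) in livers 1 to 4 (symbols), with the mean as a line, ordered by role. Gdf15 runs from 2.86 to 20.2 FPKM, whereas Ccng1 stays between 13.4 and 15.8 FPKM.

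Among the regulators, Trp53 (XLOC_002808, chromosome 11, 69580359 to 69591873) was measured at 14.3, 15.2, 21.2 and 15.6 FPKM in livers 1 to 4, a mean of 16.6 ± 3.14 (SD, n = 4). Liver 3 stood above the others, which lay close together. Its gap to the next liver was 0.808 of the whole range, just under the 95% critical value of this ratio, known as Dixon's. With values rescaled to TPM (the same sum in every liver) the ratio was 0.871 and with median-ratio scaling 0.863, both past it. Mdm2 (XLOC_002342, chromosome 10, 117688875 to 117710758) was 7.08, 7.21, 7.75 and 8.92 FPKM, a mean of 7.74 ± 0.840 (SD, n = 4). Its highest liver was liver 4, 1.26-fold above the lowest, so Trp53 and Mdm2 had different highest livers and shared their lowest, liver 1. Of 15 other regulators 11 were expressed, with a median SD of 0.17 on the log2(FPKM + 1) scale. Usp7, which removes ubiquitin from p53 and MDM2, had 13.1 ± 0.535 FPKM, and Rchy1, another ubiquitin ligase of p53, had 14.2 ± 2.40 FPKM (each SD, n = 4). The acetyltransferase gene Kat5 had 6.32 ± 0.922 FPKM, and Mdm4, the paralog of Mdm2 that also restrains p53, had 5.25 ± 0.660 FPKM (each SD, n = 4). Hipk2, a kinase of p53, was 1.36, 0.921, 2.00 and 1.55 FPKM, and the deacetylase gene Sirt1 3.59, 3.47, 2.39 and 3.81 FPKM. Hipk2 was highest and Sirt1 lowest in liver 3, the liver in which Trp53 was highest. Of the p53 relatives, Trp73 was listed at 0 in all livers and Trp63 at 0 in 3 of them and at 0.0562 FPKM in liver 3. A listed 0 need not mean low expression in this table, since Alb is also listed at 0.

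Cdkn1a, Btg2 and Gadd45a, which restrain the cell cycle, held the widest differences apart from Gdf15. Cdkn1a (XLOC_008737, chromosome 17, 29090986 to 29100722) was 4.10, 7.45, 6.29 and 3.41 FPKM in livers 1 to 4, a mean of 5.31 ± 1.88 (SD, n = 4). Livers 2 and 3 were high and livers 1 and 4 low, the highest 2.19-fold above the lowest. Btg2 (XLOC_001049, chromosome 1, 134074865 to 134079155), which encodes an antiproliferative partner of the mRNA deadenylation machinery, was 10.2, 14.5, 6.19 and 5.95 FPKM, a mean of 9.19 ± 4.01 (SD, n = 4). Livers 1 and 2 were high, and the range was 2.43-fold. Gadd45a (XLOC_017902, chromosome 6, 67035096 to 67080652), a growth arrest and DNA damage gene, went another way, at 8.94, 8.49, 5.75 and 14.3 FPKM, a mean of 9.38 ± 3.59 (SD, n = 4). Liver 4, where Cdkn1a, Btg2 and Gdf15 were lowest, had the highest Gadd45a value, 2.49-fold above liver 3, and without liver 4 the range was 1.55-fold. The antisense gene E230016M11Rik is listed with the same span as Gadd45a, at 0.566, 0.0939, 0.179 and 0.434 FPKM, and strand use in the counting is not given in the sources used here, so reads of the pair cannot be told apart.

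Ccng1 (XLOC_003490, chromosome 11, 40748552 to 40755286) encodes cyclin G1, which recruits a phosphatase to MDM2. Its values were 14.3, 15.8, 15.1 and 13.4 FPKM, a mean of 14.7 ± 0.999 (SD, n = 4) and a 1.17-fold range. Its SD on the log2(FPKM + 1) scale, 0.093, was the lowest of the 10 as deposited. It was not the lowest with TPM scaling (0.15, above Mdm2 and Phlda3), nor without liver 2 (0.078, above Phlda3), liver 3 (0.11, above Trp53 and Bax) or liver 4 (0.065, above Mdm2). Its livers fell in the order of Cdkn1a, liver 2 highest, then 3, 1 and 4, and both genes lay on the same side of their mean in all 4 livers. The ranges of Cdkn1a and Ccng1 between livers were 2.19-fold and 1.17-fold. Their promoters, printed above, are the pair with 19 of 20 matching positions, and a link of the element to the order of livers was not tested. Btg2, Gdf15 and Sesn2, whose windows held no full decamer, also lay on the same side of their means as each other in all 4 livers.

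Of the genes of cell death and survival, Bax (XLOC_019812, chromosome 7, 45461695 to 45466898), whose product permeabilises the outer mitochondrial membrane, was 23.2, 25.6, 19.2 and 25.8 FPKM, a mean of 23.5 ± 3.07 (SD, n = 4). Liver 3 was low. Livers 2 and 4 were so close that liver 2 became the highest with TPM or median-ratio scaling. Phlda3 (XLOC_000419, chromosome 1, 135766085 to 135769134), an inhibitor of AKT at the membrane, was 4.93, 3.78, 4.56 and 4.52 FPKM, a mean of 4.45 ± 0.481 (SD, n = 4). It was lowest in liver 2, where Cdkn1a, Ccng1, Btg2 and Gdf15 were highest.

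The stress genes differed in size of range and shared the low position of liver 4. Gdf15 (XLOC_021338, chromosome 8, 70629394 to 70631635), which encodes a secreted hormone that lowers appetite and is raised in stressed liver, was 13.5, 20.2, 7.68 and 2.86 FPKM in livers 1 to 4, a mean of 11.1 ± 7.48 (SD, n = 4). Livers 1 and 2 were high and liver 4 low, and the range was 7.05-fold, or 2.63-fold without liver 4. Sesn2 (XLOC_015408, chromosome 4, 132492807 to 132510456), a leucine sensor upstream of mTORC1 that is induced by p53 and by ATF4, was 4.03, 2.94, 2.42 and 2.29 FPKM, a mean of 2.92 ± 0.790 (SD, n = 4). Liver 1 was high and the others lay closer together, with a 1.76-fold range. Gdf15, Btg2 and Sesn2 were above their means in livers 1 and 2 and below them in livers 3 and 4.

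The spread was compared with that of all expressed genes on the scale of log2(FPKM + 1), which understates differences of low genes. The SD between livers was 1.06 for Gdf15, 0.55 for Btg2, 0.49 for Gadd45a and 0.44 for Cdkn1a, against a median of 0.16 over the 10541 expressed genes. Of the expressed genes, 99.8% had a smaller SD than Gdf15, 98.9% than Btg2, 98.3% than Gadd45a and 97.4% than Cdkn1a. Sesn2 (0.28), Trp53 (0.24) and Bax (0.19) lay above the median of all genes, and Mdm2 (0.13), Phlda3 (0.13) and Ccng1 (0.093) below it. Leaving out 1 liver put the SD under 0.16 for Trp53 (0.061 without liver 3), Bax (0.082 without liver 3) and Sesn2 (0.14 without liver 1). The median SD of the 10 genes was 0.26. A range of at least 2-fold was found for 4 of the 10 genes, namely Gdf15, Gadd45a, Btg2 and Cdkn1a, against 6.54% of expressed genes. That share depends on the minimum level and was 2.95% at 5 FPKM and 19.9% at 0.1 FPKM. The count fell to 2 without liver 2, where Gdf15 and Gadd45a were left, and to 2 without liver 4, where Gdf15 and Btg2 were left. For 0 of the 10 genes was 1 liver past Dixon's ratio, against 5.64% of expressed genes.

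**Figure D2:**
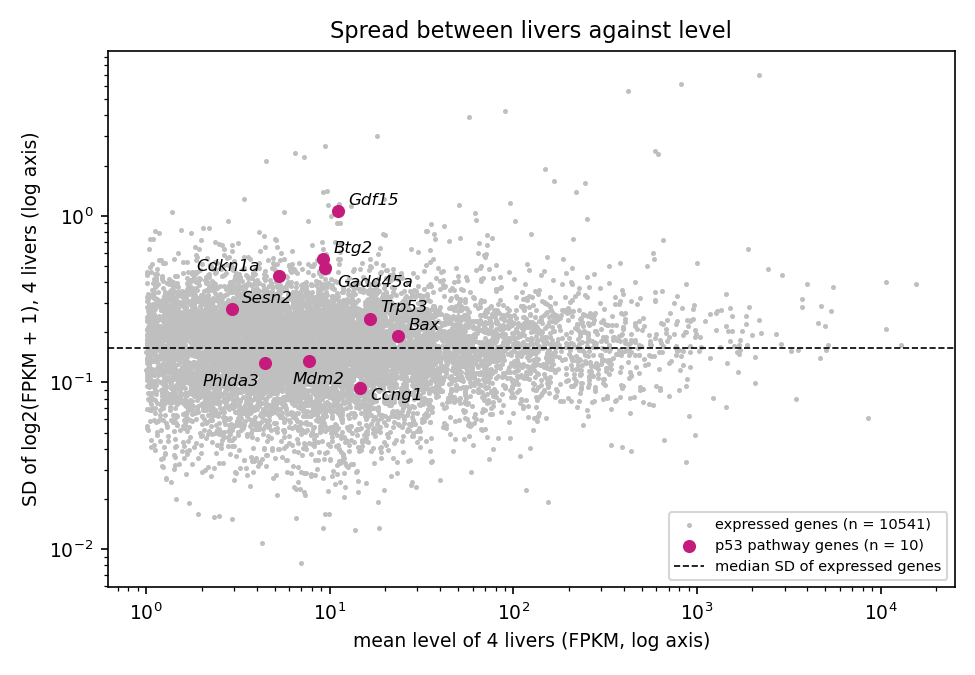
SD of log2(FPKM + 1) over 4 livers (log axis) against the mean level in FPKM (log axis) for 10541 expressed genes in grey and the 10 p53 pathway genes in colour, with the median SD of expressed genes as a dashed line. Gdf15, Btg2, Gadd45a and Cdkn1a lie in the upper part of the cloud, and Phlda3, Mdm2 and Ccng1 under the line.

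The genes had no common order of livers. Cdkn1a, Ccng1, Btg2 and Gdf15 were highest in liver 2, which is 4 of the 10 genes against 22.0% of expressed genes. TPM and median-ratio scaling add Bax, and 5 of 10 then compares with 28.4% and 24.9% of expressed genes. Those 4 and Sesn2 were lowest in liver 4, which is 5 of 10 against 18.1% of expressed genes. The same 5 were lowest in liver 4 with TPM and median-ratio scaling, where the share of expressed genes was 33.0% and 21.8%, so the background for liver 4 depends on the scaling. Trp53 and Mdm2 were lowest in liver 1 (20.7% of expressed genes), Phlda3 in liver 2 (29.9%), and Gadd45a and Bax in liver 3 (31.4%). Gadd45a, Bax and Mdm2 were highest in liver 4, 3 of 10 against 33.3% of expressed genes, a share near the background. With TPM and median-ratio scaling 2 of 10, Gadd45a and Mdm2, were highest there, against 15.6% and 27.1% of expressed genes. Trp53 alone was highest in liver 3 (26.8% of expressed genes), and Phlda3 and Sesn2 in liver 1 (17.9%). The median deviation of the 10 genes from their own means was -0.0035, 0.064, -0.085 and -0.089 on the log2 scale in livers 1 to 4, against -0.0094, -0.019, -0.015 and 0.042 over all expressed genes. With 1 liver left out these medians ranged from -0.041 to 0.049 in liver 1, 0.029 to 0.11 in liver 2, -0.11 to -0.025 in liver 3 and -0.11 to -0.032 in liver 4. The widest deviations of a single gene were those of Gdf15, 1.07 in liver 2 and -1.38 in liver 4.

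Liver 2 and liver 4 also differed in other groups of genes. All 10 listed acute phase genes were highest in liver 2, against 22.0% of expressed genes. Earlier results of these data had already shown liver 2 apart in acute phase genes, so this count is no independent result. Saa1 was 2135 FPKM in liver 2 and 45.6 to 139 FPKM in the other livers, Saa2 2106 against 42.6 to 107 FPKM, and Lcn2 714 against 55.4 to 114 FPKM. The more abundant Hp (3598 against 1634 to 2454 FPKM), Hpx (4113 against 2006 to 3069 FPKM) and Fgg (1973 against 1512 to 1956 FPKM) differed less. Of the neutrophil markers, 4 of 5 were in the table, none of them at 0 in all livers, and their summed level was 18.6 FPKM in liver 2 and 8.33 to 11.5 FPKM in the others. S100a8 (7.79 FPKM in liver 2) and S100a9 (7.93 FPKM) made up most of it, and Csf3r was highest in liver 3 (1.15 FPKM against 0.827 FPKM in liver 2). The 6 stellate cell and fibroblast markers, none at 0, summed to 293 FPKM in liver 2 and 190 to 232 FPKM in the others. Most of that sum was Dcn (194 FPKM in liver 2), and the stellate markers Lrat (4.91, 4.18, 4.05 and 3.26 FPKM) and Des (3.55, 2.90, 3.11 and 2.22 FPKM) were highest in liver 1. The 6 macrophage markers, none at 0, summed to 200 FPKM in liver 2 and 208 FPKM in liver 4, against 155 and 156 FPKM in livers 3 and 1. The 5 endothelial markers, none at 0, summed to 46.0 and 46.8 FPKM in livers 2 and 4, against 37.0 and 39.8 FPKM in livers 1 and 3. Clec4g made up most of that sum (26.7, 28.5, 28.4 and 33.6 FPKM), and Vwf was lowest in liver 4 (0.727, 1.10, 0.674 and 0.548 FPKM). The 5 cholangiocyte markers, none at 0, ranged from 192 to 233 FPKM in sum. The 4 B cell markers ranged from 2.69 to 4.04 FPKM in sum, and the 4 T and NK cell markers found in the table from 1.28 to 3.25 FPKM. Of the 4 adipocyte markers, Plin1 and Lep were at 0 in all livers, and the list summed to 0.609 to 4.49 FPKM, nearly all of it Cfd (2.81, 0.961, 0.556 and 4.49 FPKM). The erythroid rows, from 2 of 5 listed symbols, summed to 427 to 1076 FPKM. The 6 hepatocyte markers summed to 21888 to 30338 FPKM, highest in liver 4, with Alb listed at 0 in all livers although the other 5 were abundant. Apoa1, Cyp2e1 and Ttr made up most of that sum, and Cps1 (748 against 617 FPKM in liver 4) and Hnf4a (156 against 118 FPKM) were highest in liver 3. The part of these markers in the differences of the p53 pathway genes was not tested, and in bulk tissue fewer cells of a type and less RNA per cell cannot be told apart.

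Of 26 listed targets all were in the table and 20 were expressed. Their median SD was 0.20, and 4 of 20 had a range of at least 2-fold, namely Ddit4, Bbc3, Aen and Ak1, against 6.54% of all expressed genes. These 4, picked by their range, were lowest in liver 4, as were 18.1% of all expressed genes as deposited and 33.0% with TPM scaling. Ddit4, an inhibitor of mTORC1, was 6.13, 9.93, 5.82 and 2.86 FPKM, and liver 2, the highest, stood 3.48-fold above liver 4, the lowest. Bbc3, which encodes the proapoptotic protein PUMA, was 5.42, 4.78, 4.27 and 1.89 FPKM, with liver 4 apart from the others. Aen, an apoptosis-enhancing nuclease, was 3.73, 3.09, 4.96 and 2.18 FPKM, highest in liver 3 as was Trp53. Dcxr, a carbonyl reductase, was 95.5, 97.5, 109 and 147 FPKM and so was highest in liver 4. Dcxr was second in mean level to Ephx1, a microsomal epoxide hydrolase, with 384 ± 39.2 FPKM, and was followed by Ei24, an endoplasmic reticulum protein, with 85.1 ± 9.16 FPKM (each SD, n = 4). The 20 targets were highest in livers 1 to 4 in 6, 4, 5 and 5 cases, against 17.9%, 22.0%, 26.8% and 33.3% of expressed genes. They were lowest in 4, 4, 6 and 6 cases, and 6 of 20 compares, as deposited, with 31.4% of expressed genes for liver 3 and 18.1% for liver 4. Their median deviations were 0.050, -0.027, -0.041 and 0.016 on the log2 scale, against -0.0094, -0.019, -0.015 and 0.042 over all expressed genes.

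**Figure D3:**
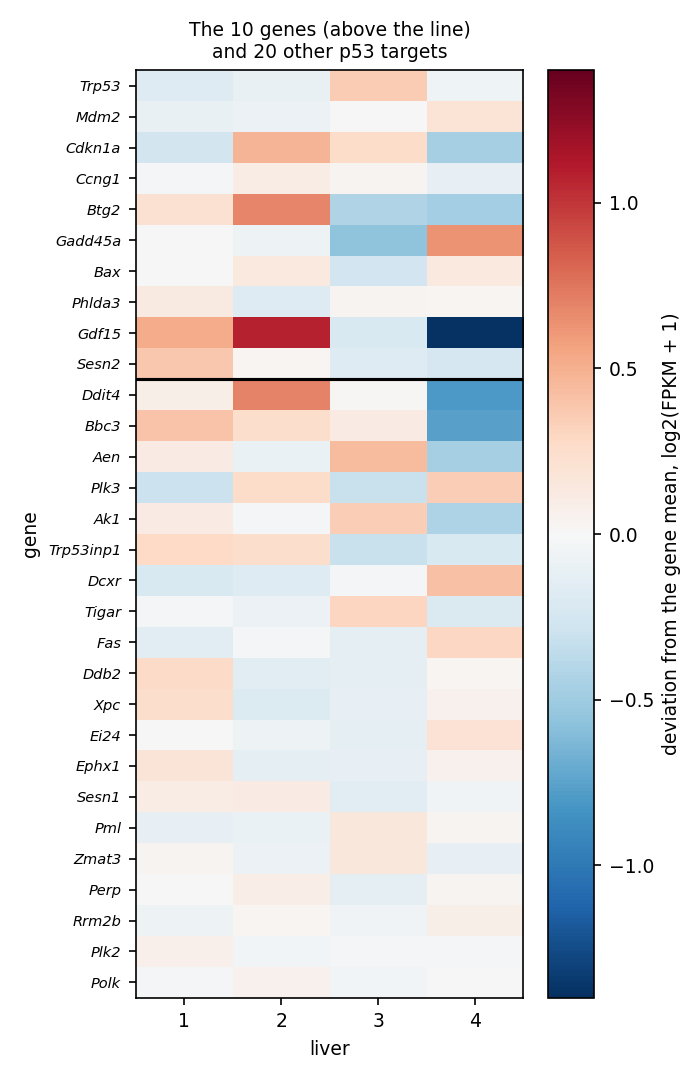
Deviation of each gene from its own mean of log2(FPKM + 1) in livers 1 to 4 (colour, red above and blue below the mean), for the 10 genes above the line in order of role and 20 other expressed p53 targets below it, sorted by SD. Gdf15, Btg2, Ddit4 and Bbc3 are below their mean in liver 4, while Gadd45a and Dcxr are above it.

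Senescence genes gave low values for the classical inhibitors. Cdkn2a, which encodes p16 and the MDM2 inhibitor p19ARF, was 0.450, 0.754, 0.283 and 0.410 FPKM, and Cdkn2b 0.504, 0.0889, 0.286 and 0.289 FPKM. Their relative Cdkn2c was 8.83, 15.3, 7.36 and 9.14 FPKM, highest in liver 2 as was Cdkn1a. Of the 24 listed senescence genes 17 were expressed, with a median SD of 0.25, and 5 had a range of at least 2-fold, against 6.54% of all expressed genes. Igfbp7 was abundant at 347, 428, 288 and 310 FPKM, and Mmp12, a macrophage elastase, was 4.66, 6.14, 4.06 and 9.82 FPKM. Vegfa and Hmgb1 had 42.1 ± 5.87 and 50.7 ± 4.27 FPKM (each SD, n = 4). Il6 was listed at 0 in all livers. In earlier results of these data liver 2 had already stood apart in senescence genes. The expressed senescence genes were highest in liver 2 in 8 of 17 cases, against 22.0% of all expressed genes, and lowest in liver 3 in 9 of 17, against 31.4%. Their median deviations in those livers were 0.096 and -0.22 on the log2 scale, against -0.019 and -0.015 over all expressed genes. Trp53 was highest in liver 3. Cell cycle genes that fall when p53 and p21 are active were scarce: 14 of 15 were in the table and 2 were expressed. Birc5, encoding survivin, was 4.17, 2.75, 1.43 and 1.79 FPKM, and Cdk1 1.53, 0.849, 1.45 and 0.499 FPKM. Birc5 and Cdk1 were highest in liver 1. Cdk1 was lowest in liver 4, as was Cdkn1a, whereas Birc5 was lowest in liver 3.

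Btg2, Gdf15 and Sesn2 also belong to other stress programmes, whose genes were set beside them. Of 11 immediate early genes 9 were expressed, 6 with a range of at least 2-fold (6.54% of all expressed genes), and 5 were highest in liver 2 (22.0% of all expressed genes). Jun was 15.8, 27.2, 12.0 and 11.3 FPKM, Egr1 5.41, 6.28, 3.04 and 1.89 FPKM, and Zfp36, an mRNA decay factor, 55.8, 59.0, 54.0 and 36.1 FPKM. All 3 were highest in liver 2 and lowest in liver 4, as was Btg2. Junb (26.6, 20.0, 16.1 and 12.1 FPKM) was likewise lowest in liver 4, whereas Dusp1 (14.0, 17.4, 26.6 and 20.7 FPKM) was highest in liver 3. Myc was 14.3 FPKM in liver 4 and 2.28 to 3.54 FPKM in the others, which places it with Gadd45a by its highest liver. Of 12 genes of the integrated stress response 11 were expressed, 4 with a range of at least 2-fold and 0 highest in liver 2, against the same 6.54% and 22.0%. Ddit3, encoding CHOP, was 8.61, 5.82, 4.39 and 4.57 FPKM, highest in liver 1 as was Sesn2. Asns was 1.37, 3.35, 1.86 and 5.11 FPKM and Chac1 2.11, 2.47, 3.99 and 6.21 FPKM, both highest in liver 4, where Gdf15 and Sesn2 were lowest. Atf4 and Atf5 had 43.6 ± 3.74 and 154 ± 22.4 FPKM, and Fgf21, another stress hormone of liver, 6.27 ± 1.66 FPKM (each SD, n = 4). Of 5 glucocorticoid-responsive genes 3 were highest in liver 2 (22.0% of all expressed genes), among them Fkbp5 at 7.31, 16.1, 8.80 and 12.1 FPKM. Zbtb16 fell in another order, 4.88, 3.71, 2.12 and 1.06 FPKM, and Per1 (8.31 ± 2.24), Sgk1 (9.43 ± 0.399) and Tsc22d3 (39.3 ± 4.09 FPKM, each SD, n = 4) were lowest in livers 2, 3 and 4.

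Of 18 listed paralogs of the 10 genes 14 were expressed, and Gadd45g and Phlda1 had a range of at least 2-fold, 2 of 14 against 6.54% of all expressed genes. In the Gadd45 family, Gadd45g was 4.39, 6.59, 5.70 and 24.0 FPKM, highest in liver 4 as was Gadd45a, while Gadd45b stayed between 2.02 and 2.22 FPKM. In the Btg family, Btg1 was 12.5, 15.6, 9.59 and 12.7 FPKM, highest in liver 2 as was Btg2 but with liver 3 lowest. Among the cyclin-dependent kinase inhibitors, Cdkn1b, encoding p27, was 8.30, 9.80, 8.78 and 10.1 FPKM, above Cdkn1a in every liver, and Cdkn1c 1.37, 1.68, 1.41 and 1.09 FPKM. Cdkn1c was highest in liver 2 and lowest in liver 4, as was Cdkn1a. Phlda1, a relative of Phlda3, was 19.4, 19.3, 29.2 and 74.4 FPKM, whereas Phlda3 was near 4.5 FPKM in livers 3 and 4. In the Bax family, Bak1 was 8.99, 10.1, 15.6 and 9.30 FPKM, so Bak1 was highest in liver 3, where Bax was lowest. The antiapoptotic genes Mcl1 (46.1, 73.0, 45.0 and 55.1 FPKM) and Bcl2l1 (14.8, 12.5, 16.4 and 11.6 FPKM) were highest in livers 2 and 3. Sesn1 was 7.27, 7.30, 5.87 and 6.40 FPKM, above Sesn2 in every liver, and Sesn3 was 2.94, 1.96, 2.15 and 1.65 FPKM, with liver 1 highest and liver 4 lowest as in Sesn2. Ccng2 was 5.94, 7.82, 4.10 and 5.77 FPKM, a wider range than that of Ccng1.

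**Figure D4:**
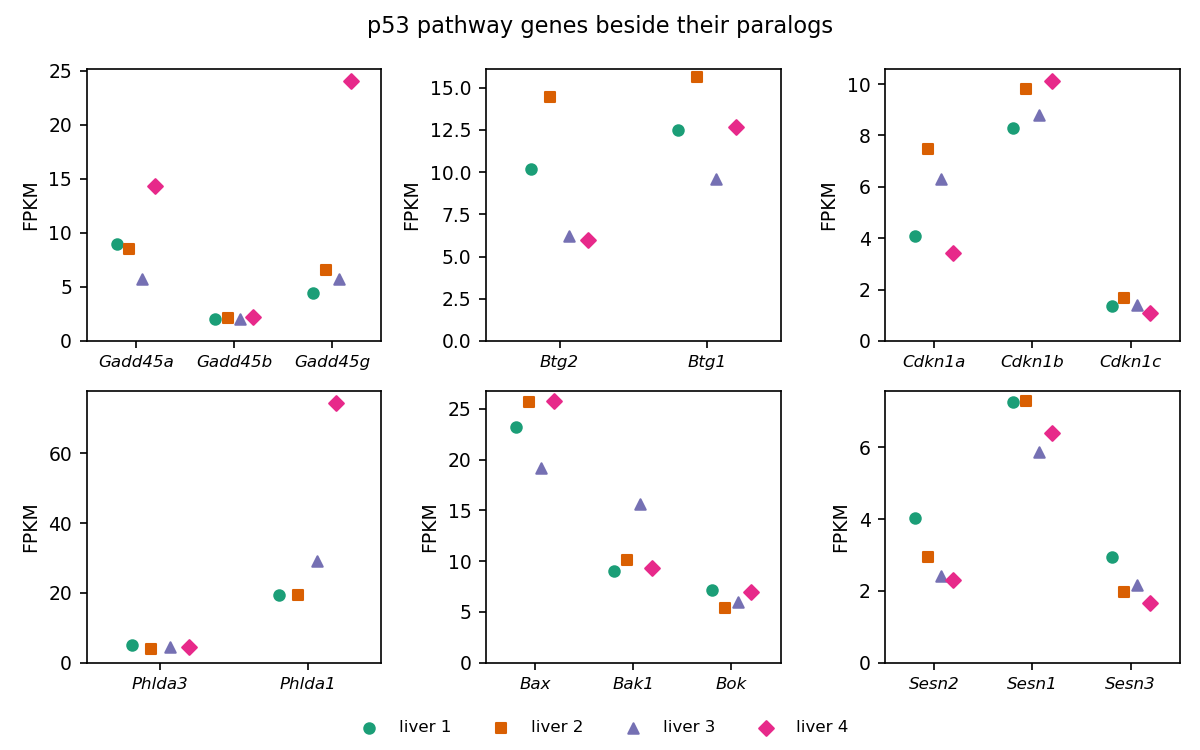
Level in FPKM (linear axes from 0) of 6 of the genes beside their paralogs in livers 1 to 4 (symbols). Gadd45a and Gadd45g share the high value of liver 4, while Bax and Bak1 have opposite positions of liver 3.

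The genes with the most similar pattern were found by the Euclidean distance between the 4 deviations from the gene mean on the log2(FPKM + 1) scale, searched over the 6538 rows whose mean reached 5 FPKM. The distance rests on 4 livers, and similar patterns in so few samples are a description. For Btg2 the nearest were Jun (distance 0.23), Col6a1 (0.26) and Klf6 (0.33). Jun and Klf6 are on the list of immediate early genes, and how often such genes turn up in a search of this kind was not computed. For Cdkn1a they were Eva1b (0.19), Gpx3 (0.20) and Cebpb (0.23), the last at 132, 273, 213 and 123 FPKM. For Gadd45a they were Agpat9 (0.17), Sh3bgrl2 (0.18) and Rhpn2 (0.28). For Gdf15 they were Efna1 (0.76), 8430408G22Rik (0.85) and Ddit4 (0.85). For Trp53 they were Daam1, Prickle4 and Dmwd, at distances of 0.025 to 0.031. Of the 15 genes, 6 were among the nearest when rows of at least 0.1 FPKM were searched.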

How the data were processed

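Total RNA from 4 livers was sequenced after poly(A) enrichment, per the labels' protocols. The submitters' processing notes list FastQC 0.10.1, Trim Galore 0.6.3, cutadapt, STAR 2.7.6a, Cufflinks 2.2.1 and the build mm10. The values in the deposited table were read as FPKM from their scaling with transcript length and from the listed tools, since no header or label names the unit; annotation and strand setting are not given in the sources used here. Columns were matched through the sample descriptions, with 0 left over, and 1 was added to each deposited start. FPKM hold no counts, so no count model was used. Depth was estimated from low values of genes with a single GENCODE vM21 transcript longer than 800 bases. It rests on the median product of FPKM and length less 200 bases, among products from 25 to 75 only. That window confines the estimate, which is approximate. With 1 group there was no test between groups. For each gene the mean, SD, range, highest liver and Dixon's ratio on FPKM were computed, with SDs and deviations on log2(FPKM + 1), in Python 3.11.15 (numpy 2.4.6, pandas 2.3.3). The ratio was tried on simulated log2 values with a common SD, not on FPKM. The distance search was tried on planted patterns with very little noise. These trials checked the code and do not show how either performs on these data.

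The genes named are the 10 members, their paralogs other than Bok, Bcl2 and Phlda2, and E230016M11Rik, which shares the span of Gadd45a. In each of 9 other lists they are the 3 most abundant and the 3 most variable (by SD) among those of at least 1 FPKM. The 3 genes nearest in pattern to Trp53, Cdkn1a and each member with a 2-fold range are named too. Cdkn2a, Cdkn2b, Il6, Ak1 and the markers Alb, Plin1, Lep, Dcn, Lrat, Des, Clec4g, Vwf, S100a8, S100a9, Csf3r, Apoa1, Cyp2e1, Ttr, Cps1, Hnf4a and Cfd were named after their values were seen. One gene that the rule names is not reported here. The members and lists were chosen with earlier results of these data known. Genes highest in liver 2 were counted because those results showed liver 2 apart in acute phase and senescence genes. The alternatives were other pseudocounts, TPM and median-ratio scaling, other minimum levels, and leaving out each liver. The shares of expressed genes under other scalings were added after seeing the data.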

Additional observations from a re-analysis of the deposited data

Results flagged for a closer look

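Of 79 genes examined, 8 had 1 liver farther from the others than Dixon's ratio allows at the 95% level for 4 samples. Chance flags about 5 in 100 such groups, but the naming rule takes the most variable genes of each list and genes like variable ones, so this count cannot be compared with that share or with the 5.64% of expressed genes that passed. None was among the 10 p53 pathway genes. Liver 2 stood apart and high in Saa2 (ratio 0.969), Saa1 (0.955) and Lcn2 (0.911), and Saa1 and Saa2 are near-identical genes whose values are uncertain. Liver 4 stood apart and high in Myc (0.895) and Gadd45g (0.888). Liver 3 stood apart and high in Daam1 (0.856), Dmwd (0.846) and Bak1 (0.835), of which Daam1 and Dmwd were chosen for their likeness to Trp53, itself highest in liver 3.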

How the results depend on the processing

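Of the alternative values for the levels, spreads, counts and medians, 165 stayed within their limit (1 SD for levels and medians, 1.5 times for spreads and counts) and 29 moved. TPM scaling changed the unit of all levels, to 31.2 TPM for Trp53, 14.5 for Mdm2, 10.1 for Cdkn1a, 27.6 for Ccng1, 17.4 for Btg2, 17.4 for Gadd45a, 43.9 for Bax, 8.34 for Phlda3, 21.1 for Gdf15 and 5.50 for Sesn2. It also raised the SD of Ccng1 to 0.15, put the median deviation in liver 4 at -0.19, and placed 1 gene, Trp53, past Dixon's ratio, as did median-ratio scaling (1 gene). Over all expressed genes the median deviation in liver 4 fell as well, from 0.042 as deposited to -0.044 with TPM scaling. Across these scalings the median of all expressed genes moved by less than 0.1. A pseudocount of 5 lowered the SD of Cdkn1a to 0.26, of Phlda3 to 0.075 and of Sesn2 to 0.14. When 1 liver was left out, the SD ranged from 0.061 to 0.29 for Trp53, 0.061 to 0.17 for Mdm2, 0.30 to 0.59 for Gadd45a, 0.082 to 0.23 for Bax, 0.057 to 0.16 for Phlda3, 0.65 to 1.29 for Gdf15 and 0.14 to 0.34 for Sesn2, the lowest without liver 3 (Trp53, Bax), 4 (Mdm2, Gadd45a, Gdf15), 2 (Phlda3) or 1 (Sesn2). The number of genes with a 2-fold range was then 2 to 4. The share of all genes with such a range was 19.9% at a minimum of 0.1 FPKM, 2.95% at 5 FPKM and 20.7% among rows above 0 in all livers. Dixon's ratio was not run on 3 livers. No paired analysis was possible because the livers form a single group. The search for similar genes could not use another minimum of 5 FPKM, since that is its own, and the count highest in liver 2 could not be made without liver 2. By the rough estimate of depth, 1 fragment per kb is worth about 0.05 FPKM, so depth limits Cdkn2b and Trp63 more than the 10 genes.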
